A study of Mus musculus with 9 samples.

Results

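The 82 genes described here code for the proteins of the cytoplasmic ribosome of the mouse. They were taken from the deposited count table as the protein-coding genes whose GENCODE M21 symbol is Rpl or Rps followed by a number, together with Rplp0, Rplp1, Rplp2 and Rpsa, and without the Rps6k kinases, and they make up 82 of the 43629 genes listed. The small (40S) subunit accounts for 32 of them and the large (60S) subunit for 50. The study asked how an extra copy of a stretch of mouse chromosome 16 changes gene expression across the genome, in a mouse model of Down syndrome. RNA was sequenced from 9 cultures of mouse embryonic fibroblasts (MEFs), connective tissue cells grown out of E14.5 embryos after the head and internal organs were taken away. The 4 WT cultures came from wild-type embryos and the 5 Dp1Tyb cultures from littermates carrying Dp(16Lipi-Zbtb21)1TybEmcf, a duplication running from Lipi to Zbtb21. All embryos had the strain label C57BL/6J.129P2, and each library came from 1 culture and 1 embryo, with no pooling.

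A ribosome is built from ribosomal RNA and one copy of most of these proteins, which are made in the cytoplasm, carried to the nucleolus and joined to the RNA there. Growing cells spend much of their messenger RNA on them. Many of the messages begin with a run of pyrimidines, the terminal oligopyrimidine (TOP) motif, through which the growth-sensing kinase complex mTORC1 sets how fast they are translated. The genes have also left many processed pseudogenes, intronless copies of the messenger RNA pasted elsewhere in the genome. A read from a stretch that gene and copy share cannot be assigned to either from its letters alone.

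Pyrimidine runs of 8 or more bases near the listed start were found in a minority of these genes. Shorter runs and other starts of a gene were not searched, so this is not the share of genes with a TOP motif. RefSeq promoter entries on GRCm38.p6 were given for 62 of the 82 genes, and the first listed start of each gene was used. Starts holding 8 or more C or T in a row, beginning with C, between 10 bases before and 20 bases after the start were found in 20 of 62 (32.3%), against 8.57% of the 26963 other genes. The letters CCGGAAG, on either strand and anywhere from 250 bases before to 50 after the start, were found in 24 of 62 (38.7%), against 9.05% of the others. These matches describe the letters alone, and since the window reaches past the start, a run in it need not lie at the first base of the message as a TOP motif does. The 30 bases around the start of 4 of the genes are shown 5′ to 3′ on the gene's strand, with the pyrimidine run in capitals. In Rps12 and Rpl13a the run begins after the listed start. They come from Rps6 (chr4:86857348-86857377, minus strand), Rplp2 (chr7:141447641-141447670, plus strand), Rps12 (chr10:23787190-23787219, minus strand) and Rpl13a (chr7:45128726-45128755, minus strand).
Rps6: gaagtcgggCCTCTTTTTCgtgacgcctcc
Rplp2: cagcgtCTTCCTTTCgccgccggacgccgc
Rps12: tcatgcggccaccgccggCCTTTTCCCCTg
Rpl13a: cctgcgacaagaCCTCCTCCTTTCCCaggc

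A second set of sequences bears on how the reads were counted. Rplp0 codes for the central protein of the ribosomal stalk. Its coding sequence of 951 bases differs from the processed pseudogene Gm8730 at 12 bases and from Gm9625 at 24, and at 8 of these positions both copies carry the same base. With positions counted from the first base of the Rplp0 coding sequence, 2 of the shared differences are A390G and A393G. Coding bases 376 to 435 are given for Rplp0 in exon 4 (chr5:115561156-115561215, plus strand), Gm8730 (chr8:102865364-102865423, minus strand) and Gm9625 (chr13:67810621-67810680, plus strand), on GRCm38 with the differing bases in capitals.
Rplp0: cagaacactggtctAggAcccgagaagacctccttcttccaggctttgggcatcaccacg
Gm8730: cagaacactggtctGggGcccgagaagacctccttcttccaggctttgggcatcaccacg
Gm9625: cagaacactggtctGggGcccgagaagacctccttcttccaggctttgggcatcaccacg

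Rpl34, a protein of the large subunit, has a coding sequence of 351 bases that differs at 2 bases from Rpl34-ps1 and at 4 from Gm10154. Both copies share those 2 differences, T132C and C318G, counted from the first coding base. Coding bases 292 to 339 are given for Rpl34 in exon 5 (chr3:130726890-130726937, minus strand), Rpl34-ps1 (chr6:71124901-71124948, plus strand) and Gm10154 (chr4:83505200-83505247, minus strand).
Rpl34: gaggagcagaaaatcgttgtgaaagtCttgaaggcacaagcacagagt
Rpl34-ps1: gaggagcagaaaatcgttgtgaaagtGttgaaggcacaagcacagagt
Gm10154: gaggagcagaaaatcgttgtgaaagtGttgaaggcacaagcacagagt

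Rpl11, which with Rpl5 can bind and block the p53 inhibitor Mdm2, differs from its copy Gm10288 at 1 of 534 coding bases, G86A. Coding bases 62 to 109 are given for Rpl11 in exon 2 (chr4:136052615-136052662, minus strand) and Gm10288 (chr3:146839239-146839286, minus strand).
Rpl11: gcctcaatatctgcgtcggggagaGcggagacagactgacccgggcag
Gm10288: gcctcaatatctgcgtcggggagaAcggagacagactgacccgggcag

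The 9 libraries held between 24804539 and 30009361 counts. Fibroblast markers were abundant in every culture, with a summed level of 44098 to 75792 counts per 1000000 library counts (CPM) for 14 genes. List sums are relative to library totals, and the CPM of single genes are also scaled by TMM factors. Macrophage markers (12 of 12 tested, 20.5 to 461 CPM) and Schwann cell markers (9 of 10 tested, 27.0 to 167 CPM) varied more. Skeletal muscle, endothelial and epithelial markers summed to at most 244, 23.7 and 23.4 CPM, and erythroid markers to at most 0.224. The muscle genes Myod1, Myog, Myf5, Pax7 and Ckm and 7 of 8 erythroid genes, the globins among them, had at most 3 counts in any culture. In the duplicated region 83 of 89 tested genes had a log2 fold change above 0 in Dp1Tyb, with a median of 0.58. None of the ribosomal protein genes lies in that region (Lipi to Zbtb21, chr16:75540514-97962622). Rpl24, Rpl35a and Rpl39l lie on the same chromosome nearer its start, and the closest, Rpl24, ends 19.6 Mb before Lipi.

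The ribosomal protein genes did not differ detectably between Dp1Tyb and WT cultures. Of the 82, 80 passed the filter on low counts and were tested with edgeR's quasi-likelihood test. With a Benjamini-Hochberg adjusted p below 0.05 as the threshold, 0 of 80 were called, against 0.165% of all 14567 genes tested. At an unadjusted p below 0.05 the count was again 0 of 80 in either direction, where 1.36% of all tested genes were higher and 1.77% lower in Dp1Tyb. DESeq2 called none of them either, at adjusted or unadjusted p. In none of the 80 genes did the 5 Dp1Tyb cultures all lie above or all below the 4 WT cultures, a pattern seen upwards in 0.686% and downwards in 0.673% of all tested genes.

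The differences were small and estimated closely. The median log2 fold change (Dp1Tyb over WT) of the 80 genes was 0.04, against 0.00 for all tested genes, and 71 of 80 values were above 0. This count depended on the scaling and on single cultures, since 40 of 80 were above 0 when counts were scaled by library totals alone and 38 of 80 without WT replicate 1. The 95% confidence intervals extended a median of 0.23 to either side of the estimate on the log2 scale. For 78 of the 80 genes the whole interval lay within a 1.5-fold difference in either direction, the exceptions being Rpl24 and Rpl39l, the tested genes with the fewest counts. The 32 small subunit genes had a median log2 fold change of 0.03 and the 48 large subunit genes one of 0.05.

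**Figure D1:**
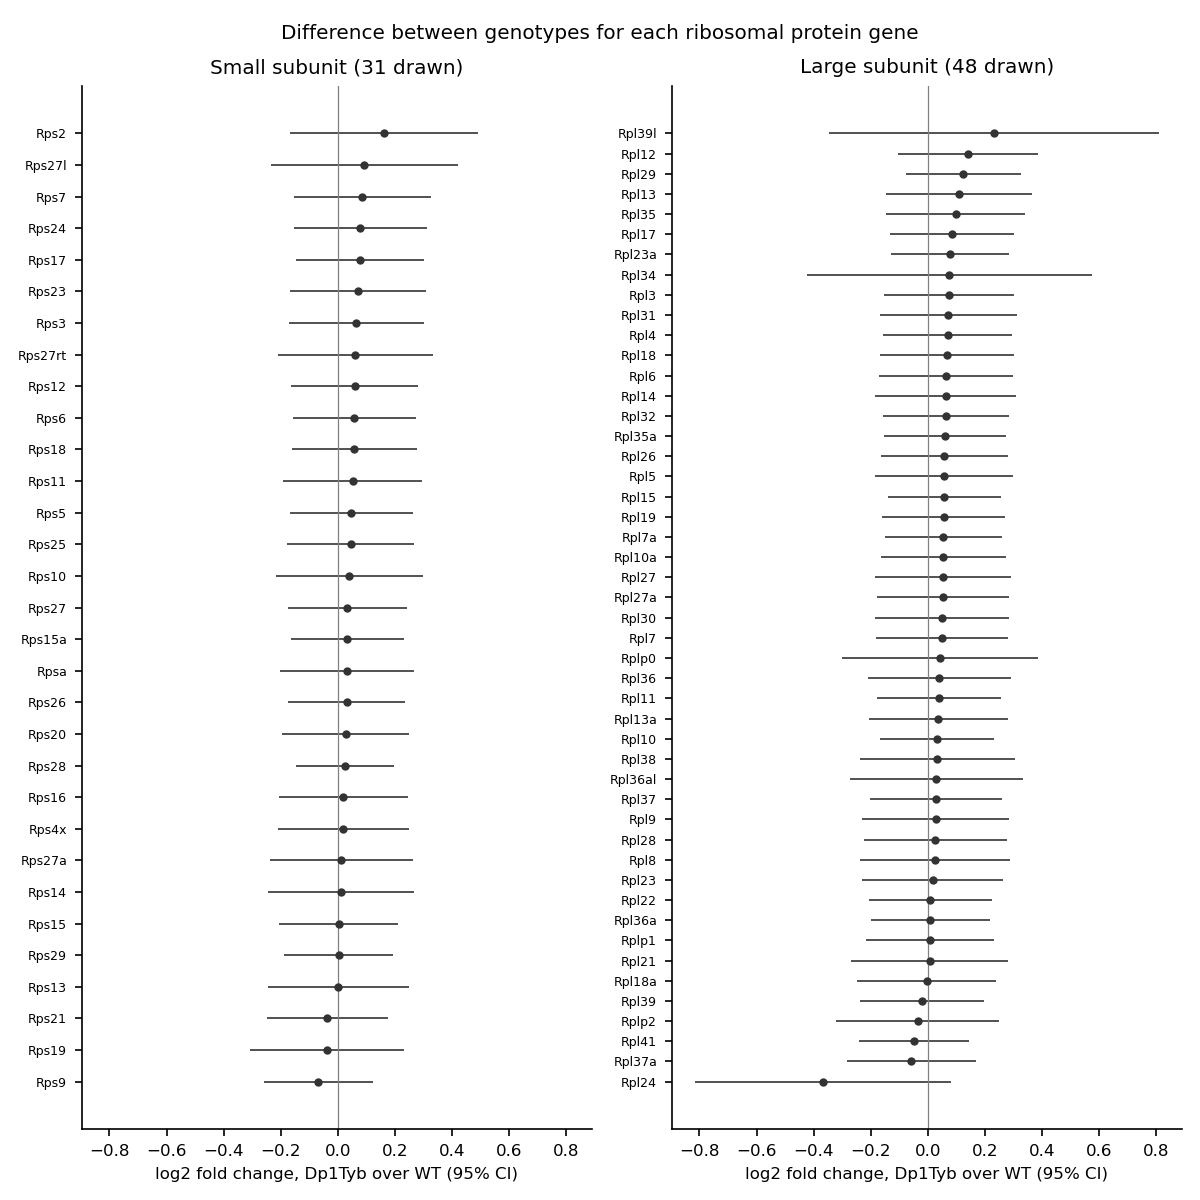
Log2 fold change of 79 of the 80 tested ribosomal protein genes, Dp1Tyb over WT, on the x axis, with the small subunit on the left and the large subunit on the right. Points are edgeR estimates and bars 95% confidence intervals from 4 WT and 5 Dp1Tyb cultures, and every interval crosses 0.

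What varied was the culture. Each gene was expressed as log2(CPM + 1) minus its own mean over the 9 cultures. The medians of these deviations over the 80 genes were -0.18, -0.04, 0.04 and 0.11 in WT cultures 1 to 4. In Dp1Tyb cultures 1 to 5 they were -0.16, 0.14, 0.06, -0.09 and 0.14. The genes moved together: 3, 24, 59 and 74 of the 80 were above their own mean in the WT cultures, and 0, 74, 73, 2 and 77 in the Dp1Tyb cultures. Over all tested genes the share above their own mean was 48.9% to 51.6% in each culture, which TMM scaling largely sets by centring most genes. Cultures with nearly all genes below and with nearly all above their mean thus occurred in both genotypes. The mean of the culture medians was -0.02 ± 0.12 (SD, n = 4) for WT cultures and 0.02 ± 0.14 (SD, n = 5) for Dp1Tyb, so the difference was smaller than the spread within either group. Of the 4 genes on the X chromosome, 0, 0, 2 and 4 were above their mean in the WT cultures and 0, 3, 3, 0 and 4 in the Dp1Tyb cultures. In 12 genes, over 90% of the read-length windows of the transcript occur in no other gene. Of these, 0, 3, 10 and 12 were above their mean in WT and 0, 9, 11, 1 and 12 in Dp1Tyb. The low and high cultures of this set were thus the same. Such a window may differ from a copy at 1 base only, so these genes can still resemble copies closely. Rpl39, with 98.2% of such windows, had 6 copies holding a mean of 184 counts together. The part of copies in the differences between cultures was not tested with this set.

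Other gene groups shared part of this pattern. Of 566 other protein-coding genes above 100 reads per kilobase and 1000000 counts, 17.5% were above their own mean in WT 1, 28.4% in Dp1Tyb 1 and 70.5% in Dp1Tyb 2. Of 830 other protein-coding genes with a main transcript under 1000 bases, the shares were 27.7%, 23.6% and 63.4%. Mitochondrial ribosomal protein genes, 76 in number, had 10.5%, 9.21% and 86.8%. These groups were thus also low in WT 1 and Dp1Tyb 1 and high in Dp1Tyb 2. In WT 4 and Dp1Tyb 5, where 74 and 77 of the 80 ribosomal protein genes were above their mean, the shares were 54.9% and 53.9% for the highly expressed genes, 50.4% and 53.7% for the short ones and 46.1% and 60.5% for the mitochondrial ones. In WT 2 the ribosomal protein genes were mostly below their mean, while all 3 groups had 68.3% to 71.4% above.

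**Figure D2:**
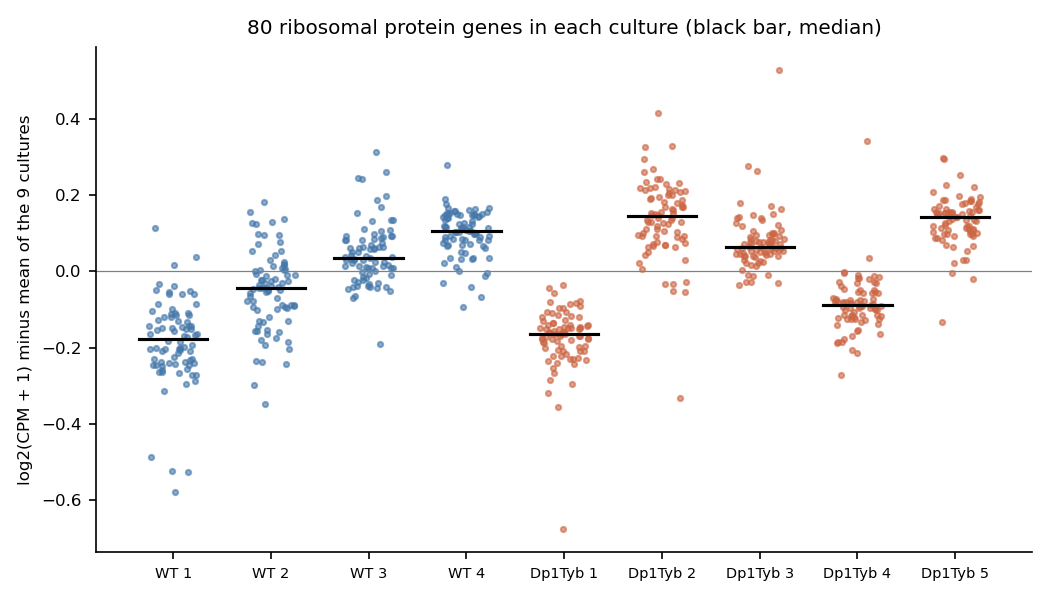
Deviation of each of the 80 tested ribosomal protein genes from its own mean over the 9 cultures, in log2(CPM + 1), by culture, WT in blue and Dp1Tyb in orange. Black bars are medians, which run from -0.18 in WT 1 to 0.14 in Dp1Tyb 2 and Dp1Tyb 5.

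The culture label sets touched this pattern. The labels place WT culture 1 and Dp1Tyb culture 1 in set 1 and the other 7 cultures in set 2. Both set 1 cultures were low, and Dp1Tyb culture 4 of set 2 was low as well. Within set 1 the Dp1Tyb median was 0.01 above the WT median, with 1 culture a group. Within set 2 the mean of the culture medians was 0.03 higher in Dp1Tyb (4 cultures) than in WT (3 cultures).

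The share of all counts that fell on the 82 genes needs no scaling between libraries. It was 3.502%, 3.54%, 3.82% and 3.98% in the WT cultures and 3.36%, 3.92%, 3.89%, 3.35% and 4.002% in the Dp1Tyb cultures. The order of cultures differed in part, since the share was lowest in Dp1Tyb 4 and Dp1Tyb 1 and the scaled median in WT 1. The groups overlapped over most of their range, with means of 3.71% ± 0.23 (SD, n = 4) for WT and 3.71% ± 0.32 (SD, n = 5) for Dp1Tyb.

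Marker levels moved between cultures too, in their own order. Summed macrophage markers were 172, 80.5, 157 and 310 CPM in WT cultures 1 to 4 and 28.2, 20.5, 461, 183 and 354 in Dp1Tyb cultures 1 to 5. The lowest sums, in Dp1Tyb cultures 1 and 2, stood beside low and high ribosomal protein genes. The highest sums, in Dp1Tyb 3, Dp1Tyb 5 and WT 4, stood beside 73, 77 and 74 of the 80 genes above their own mean. Fibroblast markers summed to 70997, 52356, 58804 and 61792 CPM in WT and 65753, 44098, 74469, 75792 and 71577 in Dp1Tyb. Dp1Tyb 2 and Dp1Tyb 5, where the median of the ribosomal protein genes was 0.14 in both, had 44098 and 71577, and WT 1, where it was lowest, had 70997. Schwann cell markers did not overlap between the genotypes, with sums of 74.3 to 167 CPM in WT and 27.0 to 70.0 in Dp1Tyb. Of 9 tested, 6 were lower in Dp1Tyb at an unadjusted p below 0.05, against 1.77% of all genes, and their median log2 fold change was -1.38. Skeletal muscle markers summed to 13.9 to 72.8 CPM in WT and 24.9 to 244 in Dp1Tyb, with 2 of 5 higher against 1.36% of all genes. The part of cell makeup in the differences between cultures was not tested, and in bulk RNA fewer cells of a type and less RNA per cell cannot be told apart.

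Levels were compared between genes per length, as reads per kilobase of the main transcript per 1000000 counts (RPKM). The median over the 80 tested genes was 548 RPKM, against 8.09 for all 13355 protein-coding genes tested. The 100 highest protein-coding genes included 34 of them, and 76 of the 82 were above 100 RPKM. The top was held by Rplp1, an acidic protein of the stalk, at 2346 ± 190 RPKM (SD, n = 9), followed by Rpl41, a very short peptide, at 1820 ± 119 and by Rps12 at 1633 ± 146. Rps18 and Rpl23a, at 1184 ± 103 and 1180 ± 95.3, did not differ beyond their spread, and Rplp0 followed at 1177 ± 180. After these the order ran down to Rpl9 at 234 ± 27.2, with the ranges of mean ± SD of neighbours overlapping. Below Rpl9 it ran on from Rps27 at 230 ± 21.4 to Rpl21 at 64.5 ± 8.42.

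**Figure D3:**
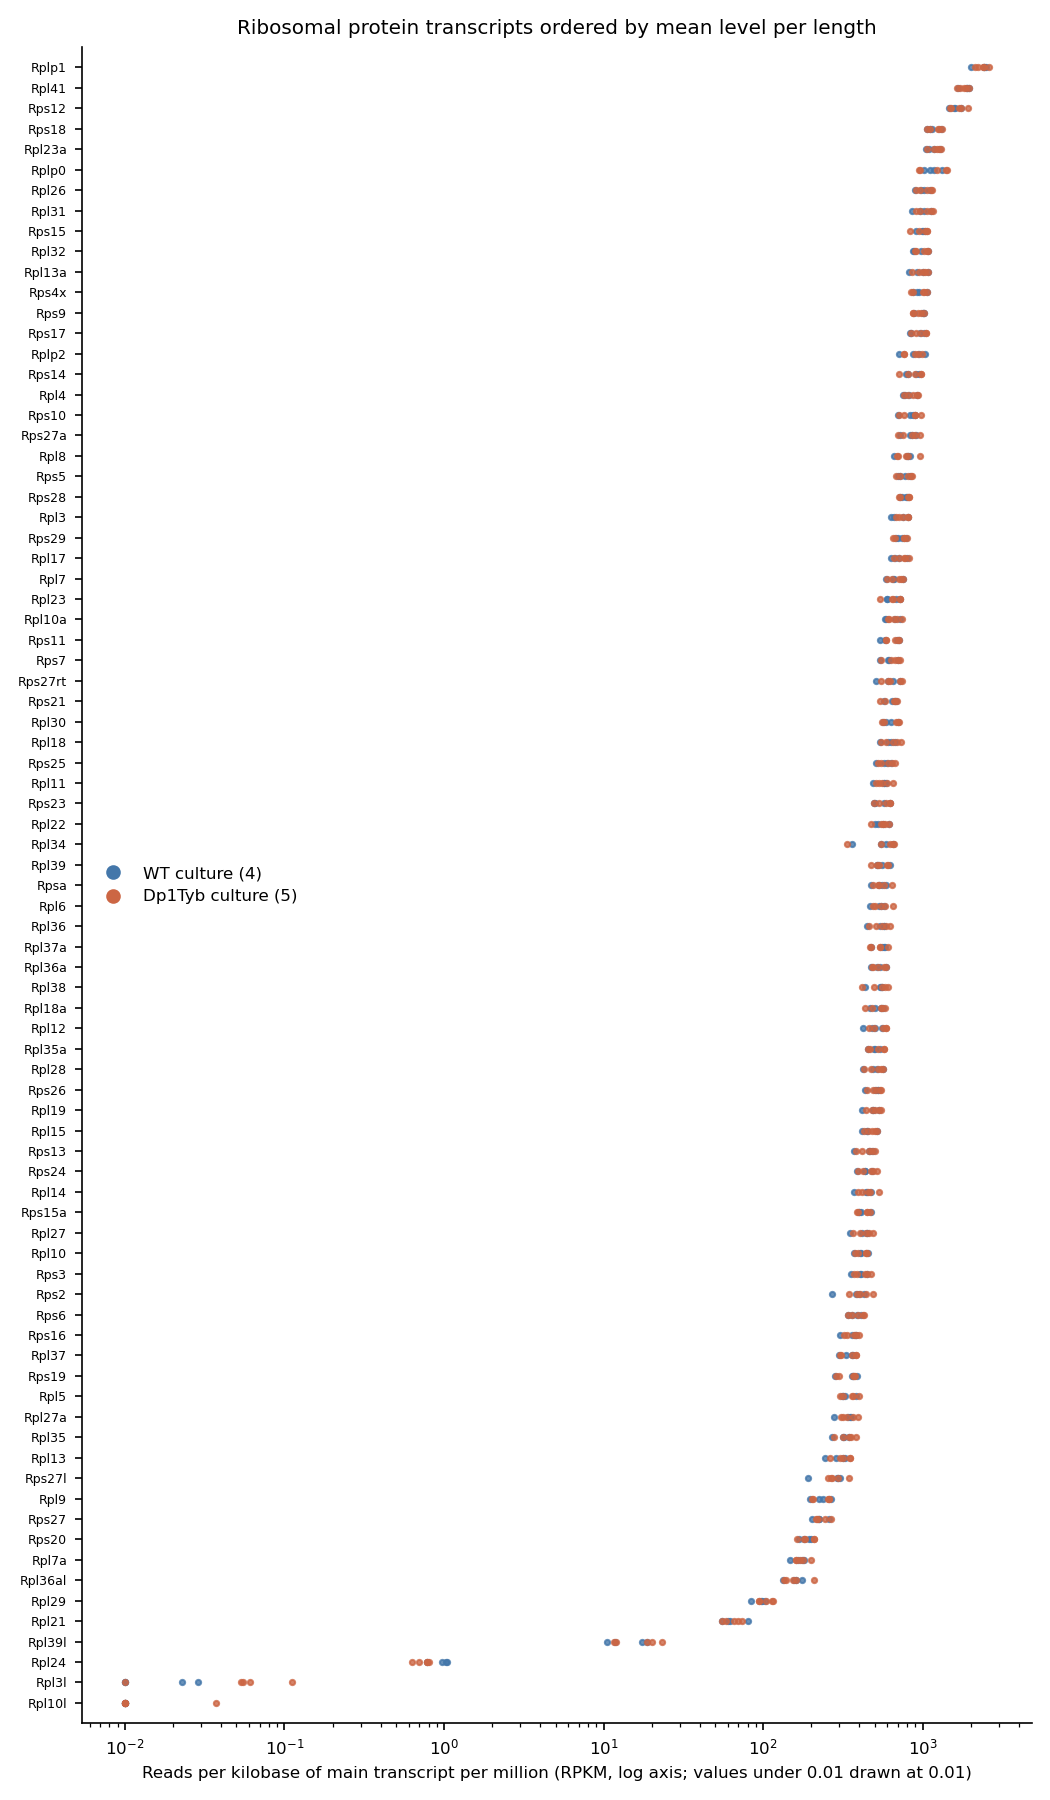
RPKM of 81 of the 82 ribosomal protein genes on a log axis, 1 point per culture, WT in blue and Dp1Tyb in orange, ordered by the mean over the 9 cultures. From Rplp1 at 2346 to Rpl9 at 234 the levels span about 10.0-fold. Below Rpl9 they run on from Rps27 at 230 to Rpl21 at 64.5. The last 4 genes, Rpl39l, Rpl24, Rpl3l and Rpl10l, fall away from the rest.

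The stalk is the part of the large subunit that recruits translation factors, with Rplp0 at its base and Rplp1 and Rplp2 bound to it. The CPM of Rplp1 were 1000, 1212, 1216 and 1244 in WT and 1060, 1294, 1212, 1109 and 1192 in Dp1Tyb, with both set 1 cultures at the low end. The log2 fold change was 0.01 (95% CI -0.22 to 0.23). For Rplp2 the CPM were 299, 400, 435 and 366 in WT and 320, 418, 374, 322 and 394 in Dp1Tyb. The genotypes overlapped, and the log2 fold change was -0.04 (95% CI -0.32 to 0.25).

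Rplp0 behaved unlike its partners. Its counts were 50924, 45761, 35969 and 39872 in the WT cultures and 35295, 40515, 50203, 31466 and 50349 in the Dp1Tyb cultures. The pseudogene Gm8730 had 62, 78, 6621 and 7225 counts in WT and 6895, 7590, 75, 5902 and 61 in Dp1Tyb. Gm9625 had 63, 63, 1638 and 1722 in WT and 1505, 1840, 53, 1354 and 59 in Dp1Tyb. Both copies were thus between 53 and 78 in WT 1, WT 2, Dp1Tyb 3 and Dp1Tyb 5 and between 1354 and 7590 in the other 5 cultures, and the step was present in both genotypes. In those 5 cultures Gm8730 took 14.8% to 15.8% and Gm9625 3.44% to 3.70% of the counts of all 3 genes. Rplp0 ran from 1289 to 1939 CPM, a ratio of 1.51 between the highest and the lowest culture. For the sum of the 3 genes, and also with all 3 copies of Rplp0 added, the ratio was 1.28, and the SD of log2(CPM + 1) over the 9 cultures was 0.22 for Rplp0 and 0.13 for the sum. The log2 fold change between genotypes was 0.04 for Rplp0 (SE 0.15) and passed no threshold.

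Rpl34 showed a similar split in other cultures. It had 5493, 6655, 7368 and 8274 counts in WT and 4414, 7343, 8279, 6350 and 8241 in Dp1Tyb, with the lowest value of each genotype in set 1. Gm10154 had 740 and 573 counts in WT 1 and Dp1Tyb 1 and at most 7 elsewhere. Rpl34-ps1 had 598 and 490 counts in those cultures and at most 4 in the others. Gm10154 made up 10.8% and 10.4% and Rpl34-ps1 8.74% and 8.92% of the counts of Rpl34, these 2 copies and Rpl34-ps2 in WT 1 and Dp1Tyb 1. Adding these 3 of its 6 copies brought the ratio between the highest and the lowest culture from 1.97 to 1.58, and all 6 brought it to 1.57, so the set 1 cultures stayed lowest, at 215 and 201 CPM against 261 to 317. The log2 fold change of Rpl34 was 0.07 (SE 0.22).

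**Figure D4:**
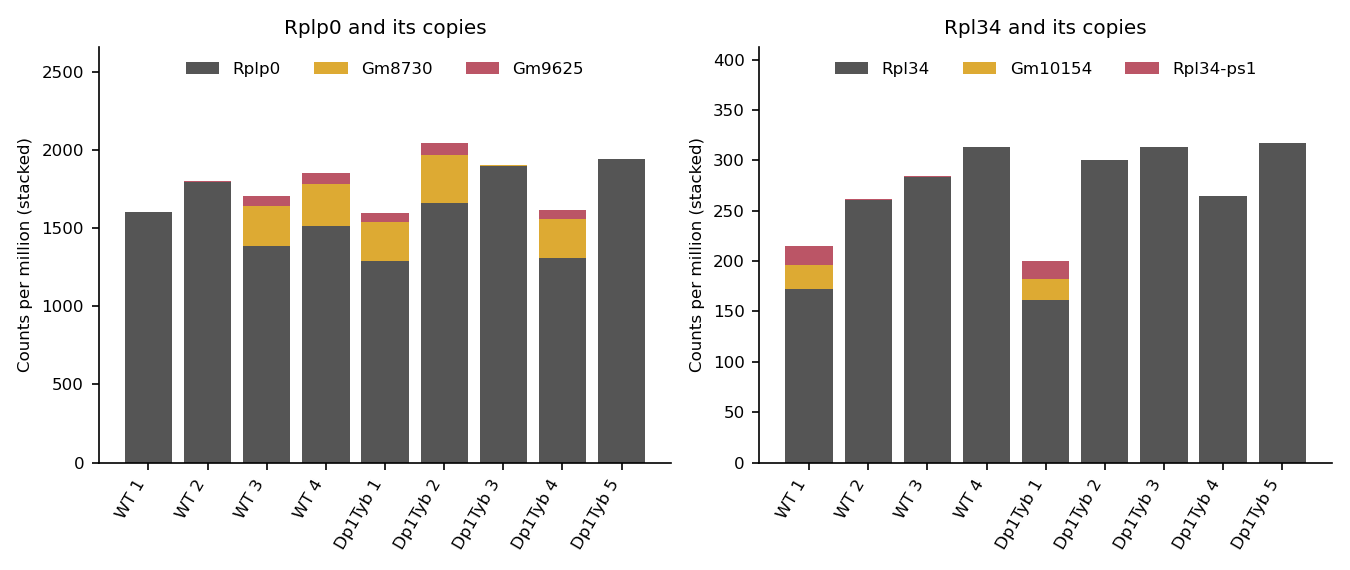
Level in CPM of Rplp0 with Gm8730 and Gm9625 (left) and of Rpl34 with Gm10154 and Rpl34-ps1 (right), stacked for each of the 4 WT and 5 Dp1Tyb cultures. Gm8730 and Gm9625 are visible in WT 3, WT 4, Dp1Tyb 1, Dp1Tyb 2 and Dp1Tyb 4, and the Rpl34 copies in WT 1 and Dp1Tyb 1, so neither split follows the genotype.

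Smaller steps of this kind occurred at other copies. Gm10288, the copy of Rpl11, had 377, 64, 63 and 356 counts in WT and 51, 72, 322, 54 and 60 in Dp1Tyb, so WT 1, WT 4 and Dp1Tyb 3 stood above the other 6 cultures. Rpl11 itself had 10651 to 13307 counts, and its copy never exceeded 2.83% of their sum. Rps10-ps2, a copy of the small subunit gene Rps10 with 5 differences in 495 coding bases, had 162 and 143 counts in WT 3 and WT 4, 142 and 164 in Dp1Tyb 4 and Dp1Tyb 5, and 38 to 63 elsewhere. These copies were picked out after their values were seen. Of 53 copies with a mean of at least 100 counts, 6 differed more than 2-fold in CPM between cultures: Gm8730, Gm9625, Gm10288, Gm10154, Rpl34-ps1 and Gm8430, a copy of Rps27a. The count table held 432 copies of 73 of the 82 genes, defined as genes that share at least 30% of their 31-base words with a member's transcripts, and 107 of them had no count in any culture.

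Genes with a large share of counts on copies had lower levels when taken alone. In 10 genes more than 25% of the counts of gene plus copies lay on the copies, and their median was 202 RPKM against 577 for the other 70 tested genes. As the 10 were picked for their share on copies, a low level of their own follows in part from the choice. Rpl21 had 64.5 RPKM alone and 309 with copies, and Rpl29 100 alone and 250 with copies. Rps6, the small subunit protein phosphorylated by S6 kinase, had 382 RPKM and left 39.98% of the joint counts on copies, among them Rps6-ps4, whose 747 aligned coding bases are identical. With copies added, the medians were 328 RPKM for the 10 genes and 630 for the others, so the 10 were still lower. Whether a copy's counts come from its own transcription or from the parent gene was not tested.

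Rps27 has an intronless relative, Rps27rt, that is itself annotated as protein-coding, and their 252 coding bases are identical. Rps27 had 1775 to 2458 counts and Rps27rt 4891 to 7720, so the retrogene took the larger part in every culture. Over the main transcript of Rps27, 1.63% of 100-base windows occur in no other gene, so the division between the pair is uncertain. Their sum ran from 261 to 368 CPM.

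Rpl24, a large subunit protein at the interface of the subunits, was the lowest of the core genes, with 22, 18, 17 and 14 counts in WT and 13, 13, 14, 13 and 11 in Dp1Tyb. In CPM these were 0.691, 0.706, 0.655 and 0.530 against 0.475, 0.532, 0.530, 0.542 and 0.424. Its log2 fold change of -0.37 (95% CI -0.82 to 0.08) was the lowest of the 80 and its p of 0.13 the smallest, with an adjusted p of 1.00 by edgeR. In an exact permutation test of log2(CPM + 1) over the 9 cultures, two-sided and added after the values were seen, its unadjusted p was 0.048 and its p adjusted over all genes 1.00. It was the only one of the 80 below 0.05 in that test, where 1.97% of all tested genes were lower and 1.57% higher. Of its main transcript, 71.5% overlaps the gene Gm28037 on the same strand, which had 0 counts in all cultures. How reads on the shared stretch were counted is not given in the sources used here.

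The small subunit genes with known roles lay close to 0. Rps2, at the entry tunnel for messenger RNA, had the highest log2 fold change among them. Its CPM were 270, 382, 426 and 398 in WT and 345, 488, 405, 384 and 442 in Dp1Tyb. WT 1 was the lowest culture and Dp1Tyb 2 the highest, and the log2 fold change was 0.16 (95% CI -0.17 to 0.49). Copies held 44.6% of the joint counts of Rps2. Rps19, Rps24 and Rps26, genes mutated in the inherited red cell aplasia Diamond-Blackfan anaemia, had log2 fold changes of -0.04, 0.08 and 0.03. For Rps14, which is lost in the 5q- form of myelodysplastic syndrome, the value was 0.01. Rpsa, also known as the laminin receptor, had 0.03, Rps3 had 0.07 and Rps6 0.06. Rps27a, which is made as a fusion with ubiquitin, had 0.01. Rps9 had the lowest value of the subunit, -0.07 (95% CI -0.26 to 0.12).

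Among large subunit genes, Rpl12, which sits next to the stalk, had 521, 593, 624 and 685 CPM in WT and 574, 728, 695, 616 and 726 in Dp1Tyb. The lowest value was in WT 1 and the highest 2 in Dp1Tyb 2 and Dp1Tyb 5, and the groups overlapped between 574 and 685. The log2 fold change was 0.14 (95% CI -0.10 to 0.39). Rpl29 had 0.12 and Rpl13 0.11, and all these intervals included 0. Rpl5 and Rpl11, the Mdm2-binding pair, had 0.06 and 0.04. Rpl3 and Rpl4, core proteins of the subunit, had 0.07 each. Rpl22 had 0.01, Rpl10a 0.05, Rpl13a 0.04, Rpl35a 0.06 and Rpl38, known for a role in skeletal patterning of the mouse embryo, 0.03. The lowest values after Rpl24 were those of Rpl37a (-0.06) and Rpl41 (-0.05).

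The X-linked genes Rpl10, Rpl36a, Rpl39 and Rps4x had log2 fold changes of 0.03, 0.01, -0.02 and 0.02. Rps4x, which codes for an RNA-binding small subunit protein, had 896, 850, 925 and 1038 CPM in WT and 824, 999, 984, 853 and 1034 in Dp1Tyb. Its highest values were in WT 4 and Dp1Tyb 5 and its lowest in Dp1Tyb 1. The part of embryo sex in the values of these X-linked genes was not tested.

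Paralogs known from testis or muscle had few counts. Rpl10l, a testis gene, had 1 count in 1 culture and 0 in the other 8, and Rpl3l, a muscle gene, had 0 to 4 counts, and neither was tested. Rpl39l, a testis paralog of Rpl39, was detected in all cultures. Its CPM were 5.78, 6.47, 10.2 and 9.59 in WT and 6.42, 6.55, 12.7, 11.0 and 10.3 in Dp1Tyb. WT 1, WT 2, Dp1Tyb 1 and Dp1Tyb 2 lay below 7 and the other 5 cultures above 9, with both levels in each genotype. The log2 fold change of 0.23 was the highest of the 80, and its 95% CI ran from -0.35 to 0.81.

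Rps27l, a p53 target, had 95.1, 150, 147 and 144 CPM in WT and 127, 173, 135, 132 and 147 in Dp1Tyb. WT 1 was lowest and Dp1Tyb 2 highest, and the log2 fold change was 0.09 (95% CI -0.24 to 0.42). The median deviation of 18 p53 targets and regulators was lowest in WT 1 too, at -0.41, and was -0.01 to 0.17 in the other cultures. Their part in the Rps27l values was not tested. Rpl36al ran from 69.9 to 110 CPM with a log2 fold change of 0.03. Of its transcript, 63.1% overlaps the gene Gm49383 on the same strand, which the count table does not list.

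Proteins of the ribosome that the symbols leave out gave similar values. Fau, Rack1, Rpl22l1 and Rpl7l1 had log2 fold changes of 0.00, 0.09, -0.02 and -0.02. Rps3a1, added after its values were seen, had 0.04. None of these 5 genes was called at an unadjusted p below 0.05.

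Genes around the ribosome were counted from fixed lists, to be read against 1.36% higher and 1.77% lower at an unadjusted p below 0.05 among all tested genes. Of 25 other messages with a TOP motif, 0 were called at an unadjusted p below 0.05, with a median log2 fold change of 0.05. Of 81 ribosome biogenesis factors, 1 was higher and none lower, with a median of 0.07. That gene was Dimt1, an 18S ribosomal RNA methylase (log2 fold change 0.24, SE 0.10). Biogenesis factors stood highest in Dp1Tyb 2, with a culture median of 0.37 against -0.13 to 0.07 in the other 8 cultures.

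Of 23 regulators of translation and mTORC1, 1 was higher and 2 lower at an unadjusted p below 0.05, against 1.36% and 1.77% of all genes. Pdcd4, an inhibitor of the helicase eIF4A, had 34.6 to 41.2 CPM in WT and 25.3 to 33.5 in Dp1Tyb, and the groups did not overlap (log2 fold change -0.31, adjusted p = 0.82 by edgeR). Larp4, a poly(A)-binding protein partner, had 61.9 to 76.7 in WT and 76.8 to 89.8 in Dp1Tyb (0.20), and Mycn was at most 1.82 in all cultures (-0.79). Of 18 p53 targets and regulators, 1 was higher, Eda2r (0.25).

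Of 76 mitochondrial ribosomal proteins, which belong to a separate ribosome, 2 were higher and none lower at an unadjusted p below 0.05, against the same 1.36% and 1.77%. Both, Mrpl39 and Mrps6, lie in the duplicated region. Mrpl39 had 27.7 to 33.4 CPM in WT and 43.3 to 58.5 in Dp1Tyb, without overlap, and a log2 fold change of 0.65 (SE 0.10, adjusted p = 0.0505 by edgeR). No gene of the lists in these 3 paragraphs passed an adjusted p below 0.05.

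**Figure D5:**
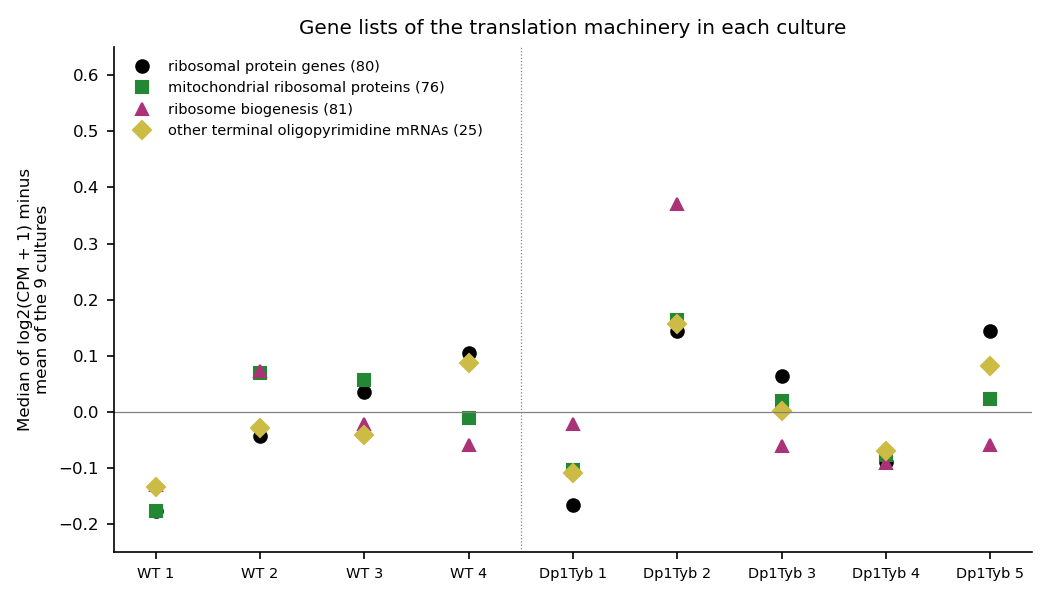
Median deviation from the 9-culture mean, in log2(CPM + 1), for 4 gene lists of the translation machinery in each culture, WT left and Dp1Tyb right of the dotted line. Ribosomal protein genes (black) run from -0.18 to 0.14, and ribosome biogenesis genes reach 0.37 in Dp1Tyb 2.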

How the data were processed

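RNA from 9 MEF cultures (4 WT, 5 Dp1Tyb) was prepared with a stranded messenger RNA kit and sequenced. The authors trimmed adapters with Trim Galore, mapped paired reads to GRCm38 with TopHat2 2.0.12, kept reads with a single alignment and counted them per gene with HTSeq. The strand option of that count is not given in the sources used here. The deposited table holds raw counts. The deposited normalised counts and the authors' DESeq2 1.6.3 comparison (means, fold changes and p-values) were not used.

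Counts were fitted over all genes with edgeR 4.0.16 (TMM, filterByExpr, quasi-likelihood F test, Benjamini-Hochberg) in R 4.3.3, with DESeq2 1.42.0 as an alternative. The script was tested on simulated data. Gene positions and transcripts came from GENCODE M21, and sequences were aligned with Biopython 1.88. The main transcript of Rps20 is long, which lowers its RPKM. The pseudocount on the log2 scale was 1, and 3 counts were taken as the floor. The edgeR p-values and intervals set the genotype difference against the spread between cultures, estimated with information shared over genes. The floor of 3 counts is a fixed cut and does not reflect that spread.

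Named genes were 28 with a known role, the paralogs, the 5 highest and 5 lowest fold changes, the 5 smallest p, the 5 highest RPKM, every gene past the threshold or failing the filter, and from other lists up to 3 genes of smallest p. Members, lists and tests were chosen with earlier results of these data known. Alternatives were other scalings, filters, tools and covariates, leaving out each culture, and, added after seeing the data, counts of copies added to their gene and an exact permutation test of each gene over the 126 ways to divide the cultures. Results on a small number of genes are not reported here, and those genes are not drawn in the plots that label each gene.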

Additional observations from a re-analysis of the deposited data

Results flagged for a closer look

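In the WT group, culture 1 lay apart from the other 3 below them for 5 of the named ribosomal protein genes. Its CPM were 999.7 for Rplp1 (1212 to 1244 in the others), 407.2 for Rpl11 (477 to 491), 149.8 for Rpl38 (187 to 191), 730.7 for Rpl41 (828.9 to 848.9) and 95.09 for Rps27l (144 to 150). In each case the gap to the nearest culture was over the 95% critical share of the group range in Dixon's test. The check was made in 80 groups of values, and chance flags about 1 in 20 groups. The 5 results share 1 library, so they are not independent of each other.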

How the results depend on the processing

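The count of 0 ribosomal protein genes at an adjusted or unadjusted p below 0.05 held under every alternative fit with edgeR or DESeq2, including those without each culture in turn. The exact permutation test, added after seeing the data, called 1 of 80 lower (Rpl24) and 0 higher at an unadjusted p, and 0 at an adjusted p. The median log2 fold change was 0.05 with DESeq2 size factors, with DESeq2 and with copies added, 0.03 with label set as covariate and 0.04 within set 2. It was 0.00 with library totals alone, and -0.01 to 0.10 when each culture was left out, being below 0 only without WT replicate 1. The number of the 80 genes above 0 fell from 71 to 40 with library totals, 38 without WT replicate 1, 48 without Dp1Tyb replicate 2 and 52 without Dp1Tyb replicate 5. The Dp1Tyb minus WT difference in the share of counts was -0.01 percentage points, and -0.08 to 0.08 without each culture. Same-numbered cultures had deviations correlated at 0.247, 0.732, 0.030 and 0.382 for replicates 1 to 4, and WT 1 correlated best with Dp1Tyb 3, so the shared numbers were not taken as pairs. With the replicate block the median was 0.01, with 52 of 80 above 0 and 0 called, and over all genes 0 against 24 were called at an adjusted p below 0.05 and 802 against 456 at an unadjusted p. Of 819 values for 39 named genes under the alternatives, 80 changed sign, none of them past a threshold. Rpl24, Rpl3l and Rpl10l had at most 22, 4 and 1 counts in a culture, and the part of depth and of shared sequence in the precision of single genes was not tested.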
